A study of Mus musculus with 5 samples.

Results

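The integrated stress response and its amino acid genes were followed in primary acinar cells of the mouse pancreas, which make and secrete the digestive enzymes. The 9 genes were taken by symbol from the 23284 symbols of the count tables: the transcription factors Atf4 and Ddit3, the stress-induced genes Trib3, Chac1 and Sesn2, and the amino acid enzymes Asns, Cth, Psat1 and Phgdh. Each symbol was present in every library. As controls served 2 libraries of genotype p48-Cre, with Cre recombinase under control of the pancreatic p48 (Ptf1a) gene. The 3 knockout libraries had the genotype Arid1afl/fl;p48-Cre, where the same Cre deletes a floxed part of Arid1a, a subunit gene of the SWI/SNF chromatin remodelling complex. All mice were C57BL/6 and 8 weeks old, both groups carried p48-Cre, and no group without Cre was analysed here. The cells were released by mincing and digestion and were rested in serum-containing medium before RNA extraction. The labels do not say whether each library came from a separate animal, so p-values reflect the spread of these libraries alone, and that spread may be technical.

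In the integrated stress response, kinases that sense amino acid shortage, endoplasmic reticulum stress, double-stranded RNA or haem shortage phosphorylate the translation factor eIF2alpha. General protein synthesis then slows while ATF4 protein is made, and ATF4 switches on genes for amino acid uptake and synthesis and for tRNA charging, as well as Ddit3 (CHOP), Trib3 and Chac1. Acinar cells have a very high rate of protein synthesis, depend on the kinase PERK, and express asparagine synthetase strongly. ATF4 is set largely at translation, so Atf4 RNA is not a measure of its activity.

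Library quality differed between the groups exactly as genotype did. The ribosomal RNA precursor Rn45s made up 72.6% and 82.2% of control counts but 6.78% to 10.9% of knockout counts. Without Rn45s and Lars2, the control libraries kept 67514 and 72006 counts and the knockout libraries 3155357, 3568906 and 3345121. Levels are given as CPM, counts per 1000000 counts of these totals. A single count equalled 14.8 and 13.9 CPM in the controls and at most 0.317 CPM in a knockout, and 3 counts over both controls together, taken as the floor of detection, equalled 21.5 CPM. Olfactory and vomeronasal receptor genes, which work in the nose, together reached 1510 and 1420 CPM in the controls but 11.7, 19.6 and 32.6 CPM in the knockouts, and the part of such background in the few control counts of other genes was not tested. Genotype therefore cannot be told apart from depth and RNA quality in any comparison of the groups. Arid1a itself had 0 and 3 control counts and 44, 121 and 42 knockout counts, and whole-gene counts include exons outside the deleted part, so they do not check the labels. The acinar enzymes Ctrb1, Cela1, Cpa1, Pnlip and Cel had at least 787 counts in every library, whereas Ptf1a had no control count and Amy2a5 none in any library. The secreted acinar genes, which encode digestive enzymes and proteins of the zymogen granule, made up 66.4% and 70.2% of the control totals and 79%, 67.5% and 87.4% of those of knockouts 1, 2 and 3.

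The knockout and control libraries were compared to ask whether genes of the stress response differ in acinar cells without Arid1a. No member passed the test. Of the 9 genes, 8 had enough counts to be tested, and with edgeR's quasi-likelihood test 0 were called higher and 0 lower at a Benjamini-Hochberg adjusted p under 0.05. Over all 8291 tested genes, 0.193% were called higher and 1.6% lower, so a count of 0 among 8 genes did not stand apart from the background. At an unadjusted p under 0.05 the number of members was 0 with edgeR on this scale, 0 with DESeq2 and 0 with limma-voom. With edgeR it depended on the scaling: it was 4 with either TMM scaling, 3 with RLE, 3 with totals that kept Rn45s and Lars2, 2 with upper quartile factors and 2 with the secreted acinar genes left out. Those scalings also raised the number over all genes, from 1072 of 8291 to 2955 of 8291 with TMM without Rn45s and Lars2. The lowest adjusted p was 0.458, for Phgdh. Only Atf4 and Asns had more than 1 control count, and Ddit3 and Phgdh alone of the others had a knockout mean above the control floor.

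**Figure D1:**
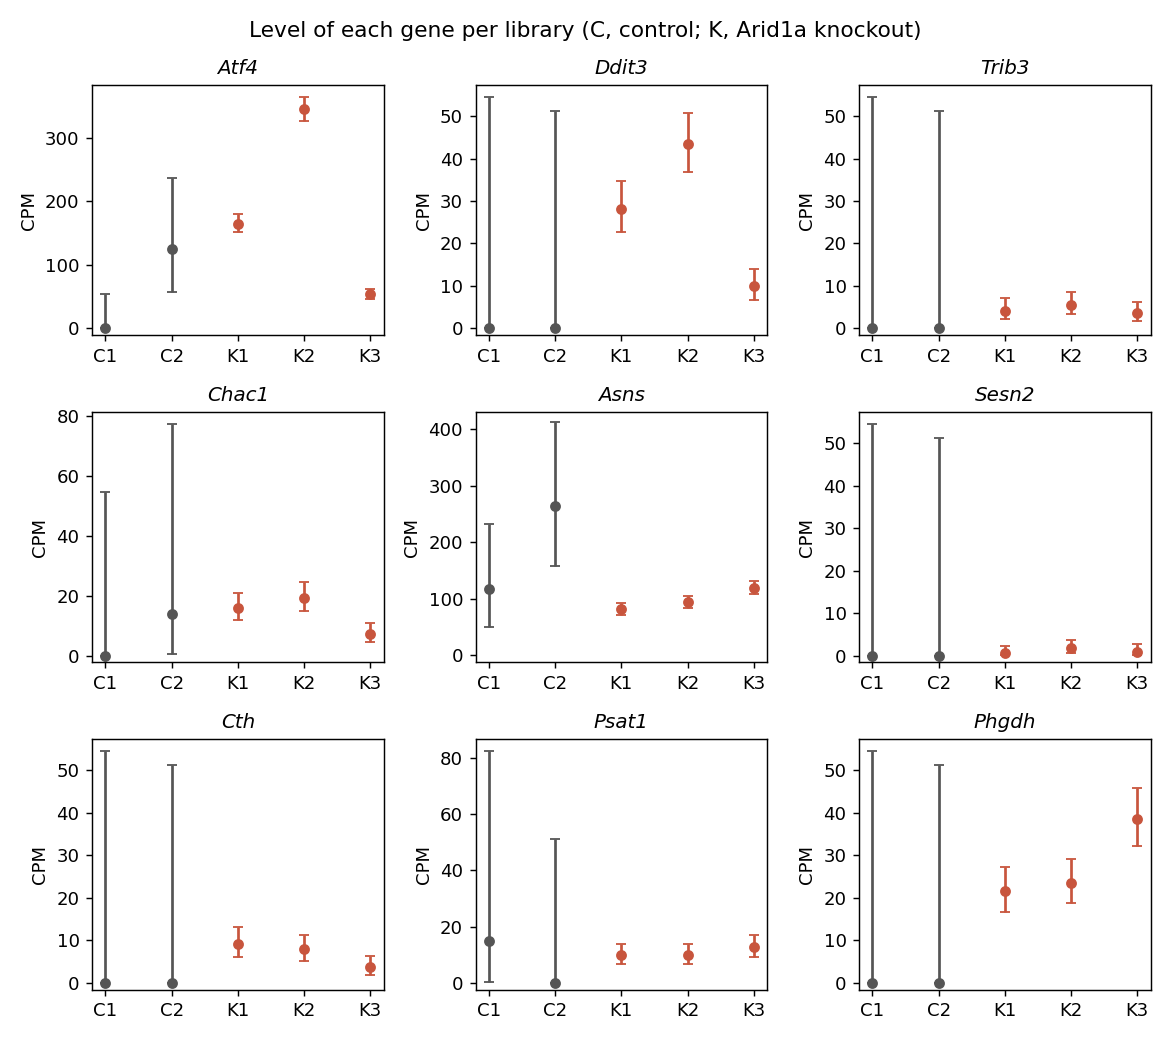
CPM of each of the 9 genes (y axes, linear, each with its own scale) in control libraries 1 and 2 (C1, C2, grey) and knockout libraries 1 to 3 (K1 to K3, red). Bars are exact 95% Poisson intervals of the count and cover counting error only. A control with no count has an interval up to 54.6 or 51.2 CPM, above every knockout value of Ddit3, Trib3, Chac1, Sesn2, Cth, Psat1 and Phgdh.

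Atf4, the central transcription factor of the response, was read 0 and 9 times in controls 1 and 2, and 522, 1231 and 180 times in knockouts 1, 2 and 3. The corresponding control levels were 0 and 125 CPM, and the knockout levels 165, 345 and 53.8 CPM. The groups overlapped, because knockout 3 lay below control 2. The control mean was 62.5 ± 88.4 CPM (SD, n = 2) and the knockout mean 188 ± 147 CPM (SD, n = 3). The fitted log2 fold change was 1.58 ± 1.23 (SE; adjusted p = 0.582, edgeR quasi-likelihood test). The size moved with the scaling, up to 3.12 and 3.16 with the TMM factors, 2.63 with RLE and 4.3 with totals that kept Rn45s and Lars2. The adjusted p ran from 0.08 to 0.163 in these 4 fits (edgeR). With upper quartile factors the size fell to 1.08 (adjusted p = 0.572, edgeR). Relative to the median of all tested genes, Atf4 stood at 1.35 in the fit used here and at 1.07 to 1.57 in the 4 fits that raised it (log2). It stood at 0.749 with upper quartile factors. Without a low-count filter it stood at -0.476, below the median of 16968 genes. There the Atf4 value itself stayed at 1.58, and the median of all genes rose from 0.224 to 2.05. That fit let in more genes with no control count, such as Sesn2 at 4.21, whose direction is fixed by the zeros. The position below that median is therefore no sign of a low Atf4 level. Pooled within groups, the knockout share was 2.98 times the control share; counting error alone gave an exact 95% interval of 1.56 to 6.52. With the secreted acinar genes left out of the totals the ratio was 4.22 (2.22 to 9.25). The spread between libraries was larger than that counting error: knockout 2 held 6.41 times the Atf4 share of knockout 3 (exact 95% interval 5.48 to 7.54). The log2 fold change was 0.589 without control 1 and 0.798 without knockout 2, so its size rested in large part on control 1 and knockout 2. Without control 2 no Atf4 count was left in the control group.

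Ddit3, which encodes the pro-apoptotic factor CHOP, had no count in either control and 89, 155 and 33 counts in the knockouts. The knockout levels were 28.2, 43.4 and 9.87 CPM, a mean of 27.2 ± 16.8 CPM (SD, n = 3). The mean was at least 1.26-fold higher than the control floor, and the exact interval of the pooled ratio, which is stricter, had a lower limit of 1.03. Knockout 3 alone lay below the floor. The adjusted p was 0.465 (edgeR quasi-likelihood test), and it came to 0.0532 at the lowest, with TMM scaling of totals without Rn45s and Lars2.

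The stress-induced genes downstream of ATF4 were scarce. Chac1, an enzyme that breaks down glutathione, had 0 and 1 control counts and stood at 15.8, 19.3 and 7.17 CPM in the knockouts. The ratio of its pooled shares, 1.98, had an exact 95% interval of 0.35 to 78.8. Trib3, a stress-induced pseudokinase, had no control count and 4.12, 5.6 and 3.59 CPM in the knockouts. Sesn2, which restrains mTORC1 when leucine is short, had no control count and 2, 6 and 3 counts in the knockouts, too few to be tested. At the knockout share, 1.98 counts of Chac1, 0.624 of Trib3 and 0.152 of Sesn2 would have been expected over both controls, so this depth could not show a higher level in the knockouts.

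Asns, asparagine synthetase, was the member best measured in the controls, with 8 and 19 counts there, against 259, 337 and 398 knockout counts. Control levels were 118 and 264 CPM, and knockout levels 82.1, 94.4 and 119 CPM. Control 1 and knockout 3 lay at nearly the same level, so the groups touched. The control mean was 191 ± 103 CPM (SD, n = 2) and the knockout mean 98.5 ± 18.8 CPM (SD, n = 3). The fitted log2 fold change of -0.96 ± 1.12 (SE; adjusted p = 0.633, edgeR quasi-likelihood test) was not larger than the spread between libraries. Its sign turned with the scaling, to 1.22 with TMM factors on all counts, where the median of all tested genes moved by 1.82. Relative to that median, Asns stood at -1.18 in the fit used here and at -0.828 with TMM on all counts (log2). The pooled ratio was 0.51 (exact 95% interval 0.348 to 0.778), and 0.724 (0.494 to 1.1) with the secreted acinar genes left out of the totals.

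Phgdh, the enzyme of the first step of serine synthesis, had no control count and 21.6, 23.5 and 38.6 CPM in the knockouts. The knockout mean of 27.9 ± 9.3 CPM (SD, n = 3) was at least 1.3-fold above the control floor, with 1.05 as the lower limit of the exact interval. Only knockout 3 lay well above the floor, and knockout 1 was at its level. Psat1, which catalyses the next step, had 1 and 0 control counts and 9.82, 9.81 and 12.6 CPM in the knockouts, and the ratio of its pooled shares was 1.5 (exact 95% interval 0.263 to 59.6). Cth, cystathionine gamma-lyase of cysteine synthesis, had no control count and 9.19, 7.85 and 3.59 CPM in the knockouts, where 0.956 control counts would have been expected. A higher knockout level of Psat1 or Cth could not be shown at this depth.

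The promoters of the members were searched for the amino acid response element, the composite site bound by ATF4 with C/EBP factors, written here as TGATGNAA on either strand. RefSeq windows from 250 bases before to 50 bases after the start site (build GRCm38.p6) were matched for 8 of the 9 genes, all but Cth. The element was found in Asns, Chac1 and Trib3, in 3 of 9 windows, 33.3%, against 3.97% of 32851 windows of all genes. The share was not particular to the members. Among the other pathway lists, described below, it was 38.5% for tRNA synthetases, 25% for partner transcription factors and 18.2% for other stress targets. It was 14.3% for amino acid transporters, 11.1% for other amino acid enzymes, 6.67% for sensors and eIF2 factors and 0% for serine and one-carbon enzymes. Asns and Trib3 are among the genes on which this element was worked out, so the matches of the members are no separate evidence. The 250 bases before the start site are shown for Asns and Chac1, which carry the match there, with the match in capitals (for Chac1 it lies on the other strand). Asns is at chr6:7693210-7693459, minus strand, and Chac1 at chr2:119350992-119351241, plus strand.
Asns: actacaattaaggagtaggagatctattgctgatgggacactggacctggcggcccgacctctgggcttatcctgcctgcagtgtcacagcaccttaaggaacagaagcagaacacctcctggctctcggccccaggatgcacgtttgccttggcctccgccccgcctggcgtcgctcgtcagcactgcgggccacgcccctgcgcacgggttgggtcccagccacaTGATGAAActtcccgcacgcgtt
Chac1: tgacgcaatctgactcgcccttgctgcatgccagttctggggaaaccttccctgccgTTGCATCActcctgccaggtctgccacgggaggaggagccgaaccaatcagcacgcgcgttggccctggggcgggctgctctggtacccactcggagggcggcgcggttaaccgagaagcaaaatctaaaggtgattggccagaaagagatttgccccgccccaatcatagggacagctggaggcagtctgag
The match began 23 bases before the start site in Asns and 193 bases before it in Chac1, and 15 bases after it in Trib3, where the letters read TGATGTAA on the other strand. The letters were not found in these windows of Atf4, Ddit3, Sesn2, Phgdh or Psat1. Bases outside the windows were not searched, so these genes may still carry the element.

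**Figure D2:**
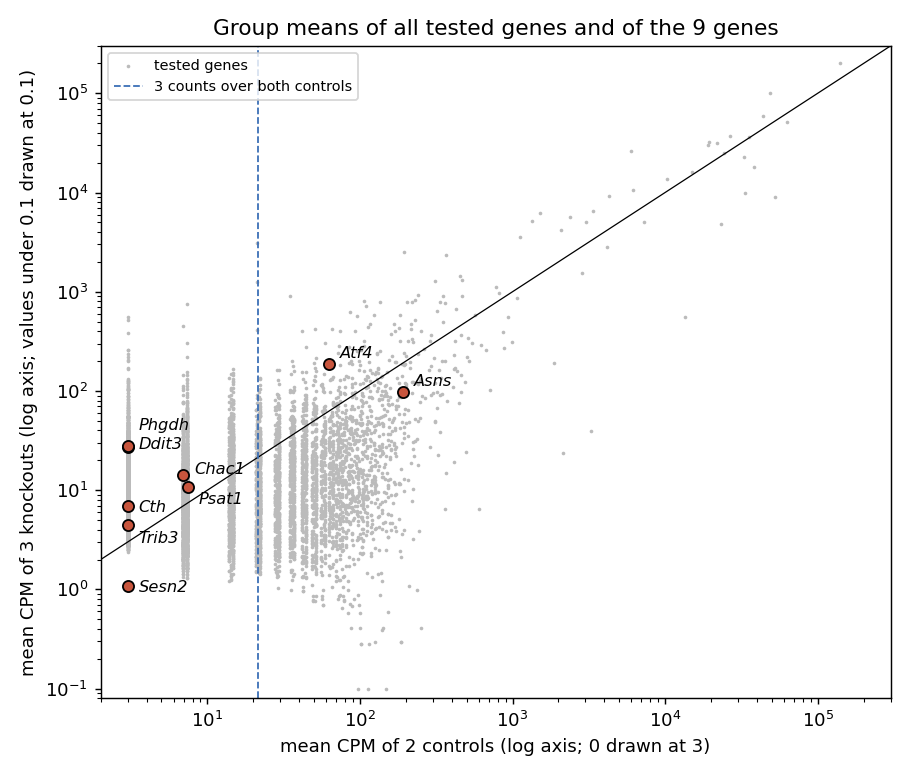
Mean CPM of the 3 knockout libraries (y axis, log scale) against mean CPM of the 2 control libraries (x axis, log scale, means of 0 drawn at 3) for the 8291 tested genes (grey) and the 9 members (red; Sesn2 was not tested). The diagonal marks equal means and the dashed line 3 counts over both controls, 21.5 CPM. Only Atf4 and Asns among the members lie to the right of that line, on opposite sides of the diagonal.

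Many genes shared the position of the members with no control count: 2775 of the 8291 tested genes, 33.5%, had none. With such genes set at the control floor, the median log2 ratio of knockout mean to pooled control CPM was -1.14 over all tested genes, and 1986 genes and 5 of the 8 tested members lay above 0. Genes with few control counts kept their own level, which can lie under that floor and is 7.17 CPM for 1 count. Chac1 and Psat1 thus lay above 0 with knockout means of 14.1 and 10.7 CPM, under the floor of 21.5 CPM. The reading therefore treats genes with no control count and with 1 unequally. The fit, which does not use that floor, gave a median log2 fold change of 0.224 over all tested genes and values above 0 for 7 of 8 tested members, 4 of them with no control count, beside 52.5% of all tested genes. Members without control counts passed the filter through the knockouts, so neither count of members supports a direction. The calls over all genes also moved with the scaling, from 16 higher and 133 lower to 147 and 71 with TMM without Rn45s and Lars2, and to 149 and 19 with totals that kept both genes.

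Per kilobase of the longest coding transcript, Atf4 had the highest mean level in the knockouts, at 109 ± 85.1 CPM per kilobase (SD, n = 3). Asns followed at 48.9 ± 9.32 and Ddit3 at 30.5 ± 18.9 CPM per kilobase. Phgdh stood at 14.7 ± 4.91, Chac1 at 8.62 ± 3.82, Psat1 at 4.1 ± 0.604, Cth at 3.79 ± 1.61, Trib3 at 2.19 ± 0.516 and Sesn2 at 0.308 ± 0.157 on the same scale. The ranges of neighbouring genes in this order overlapped over the 3 knockouts, except for Trib3 and Sesn2. In knockout 3 the order of the leading pair was turned, with Asns at 59 and Atf4 at 31.2 CPM per kilobase. In control 1 Asns had 58.8 CPM per kilobase and Atf4 was at 0, and in control 2 they had 131 and 72.5.

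The members did not move together across the 3 knockout libraries. Atf4, Ddit3, Trib3 and Chac1 were highest in knockout 2 and lowest in knockout 3, whereas Asns, Phgdh and Psat1 were highest in knockout 3. Sesn2 was highest in knockout 2 and Cth in knockout 1. Knockout 2 over knockout 3, the ratio was 6.41 for Atf4 and 4.4 for Ddit3 (exact 95% interval 3.01 to 6.62), but 0.794 for Asns (0.684 to 0.92), 0.61 for Phgdh (0.458 to 0.81) and 0.781 for Psat1 (0.484 to 1.25). These intervals compare the libraries by counting error and are not a test of a condition. Psat1 alone of these 5 had an interval that held 1. For Trib3 (1.56, interval 0.727 to 3.5) the order of knockouts 2 and 3 was within counting error.

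Asns, Phgdh and Psat1 lay apart from most genes in this respect. Outside the secreted acinar genes, 1952 tested genes had at least 30 counts in each knockout, and 82.2% of them were highest in knockout 2 and 10.2% in knockout 3. The median gene had 2.42 times the share in knockout 2 that it had in knockout 3, with quartiles of 1.55 and 3.82. Of the 1952 genes, 3.84% had a lower ratio than Phgdh, 6.35% a lower ratio than Psat1 and 6.51% a lower ratio than Asns. For Atf4 and Ddit3 the figures were 92.6% and 81.8%, so Atf4 lay in the upper tail and Ddit3 above the upper quartile. Cth and Chac1 had under 30 counts in a library. Their ratios were 2.19 (exact 95% interval 1.08 to 4.72) and 2.69 (1.67 to 4.48), both near the median gene. Of 9 other amino acid enzymes with at least 30 counts in each knockout, 5 were highest in knockout 2 and 2 in knockout 3. With the secreted acinar genes out of the totals these numbers were 1 and 3, beside 33.6% and 46.9% of the 1952 genes.

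**Figure D3:**
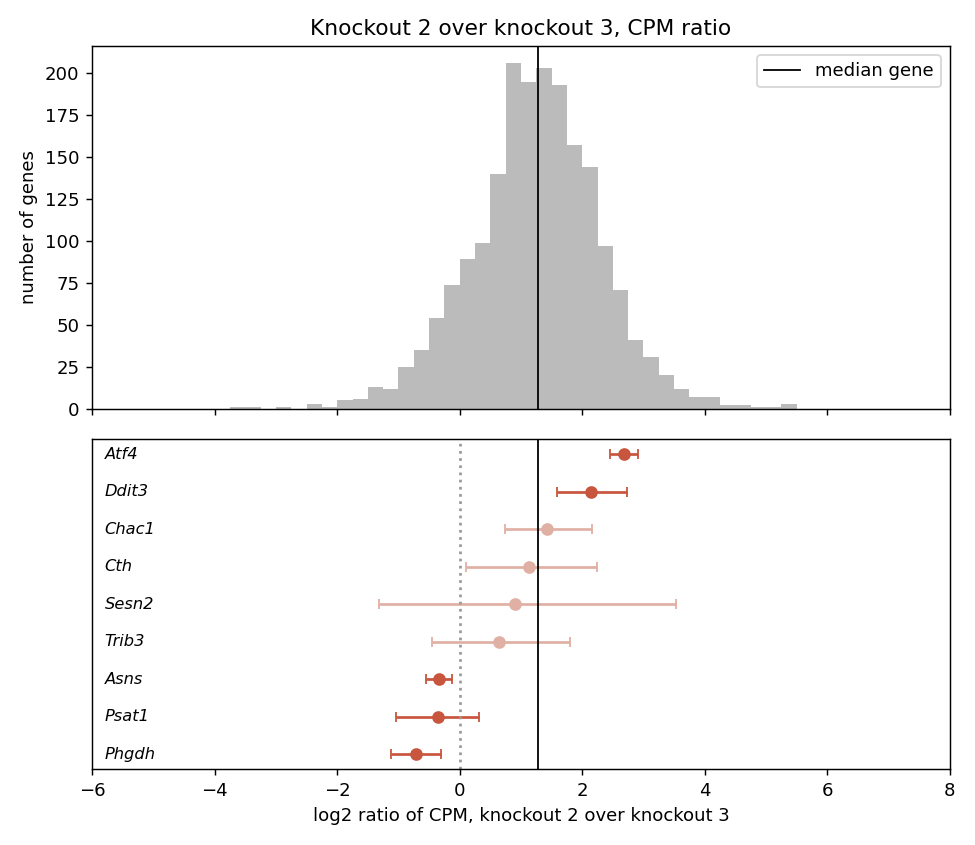
Top, number of genes (y axis) by log2 ratio of CPM in knockout 2 over knockout 3 (x axis) for the 1952 genes with at least 30 counts in each knockout. Bottom, the same ratio for the 9 members with exact 95% intervals for counting error, pale where a library had under 30 counts; the solid line is the median gene and the dotted line equality. Asns, Psat1 and Phgdh lie left of equality and Atf4 and Ddit3 right of the median gene.

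The split was also read with the secreted acinar genes, which filled 87.4% of knockout 3, left out of the totals. This raised all other genes most in knockout 3, so Asns, Phgdh and Psat1 had to stay highest there. The rank of each gene's ratio among the 1952 genes could not change either. For these 3 genes this scale is therefore no separate support. On that scale Asns stood at 391, 290 and 943 CPM in knockouts 1, 2 and 3, Phgdh at 103, 72.4 and 306 CPM, and Psat1 at 46.8, 30.2 and 99.5 CPM. Each of these 3 genes was highest in knockout 3, as were 46.9% of the 1952 genes on this scale. Atf4 had 788, 1061 and 426 CPM and was again highest in knockout 2 and lowest in knockout 3. Ddit3 had 134, 134 and 78.2 CPM and was again lowest in knockout 3. The order of Trib3 did not hold, with 19.6, 17.2 and 28.4 CPM, and that of Chac1 changed to 75.5, 59.5 and 56.8 CPM. Of the members with a match to the amino acid response element in the searched windows, Asns lay with Phgdh and Psat1 on both scales. Chac1 had the order of Atf4 on the first scale, but its ratio of knockout 2 over knockout 3 was near that of the median gene. For Trib3 that ratio was within counting error, so these 3 genes do not place the element on either side. Members without a match may carry the element outside the windows, and Cth had no window.

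**Figure D4:**
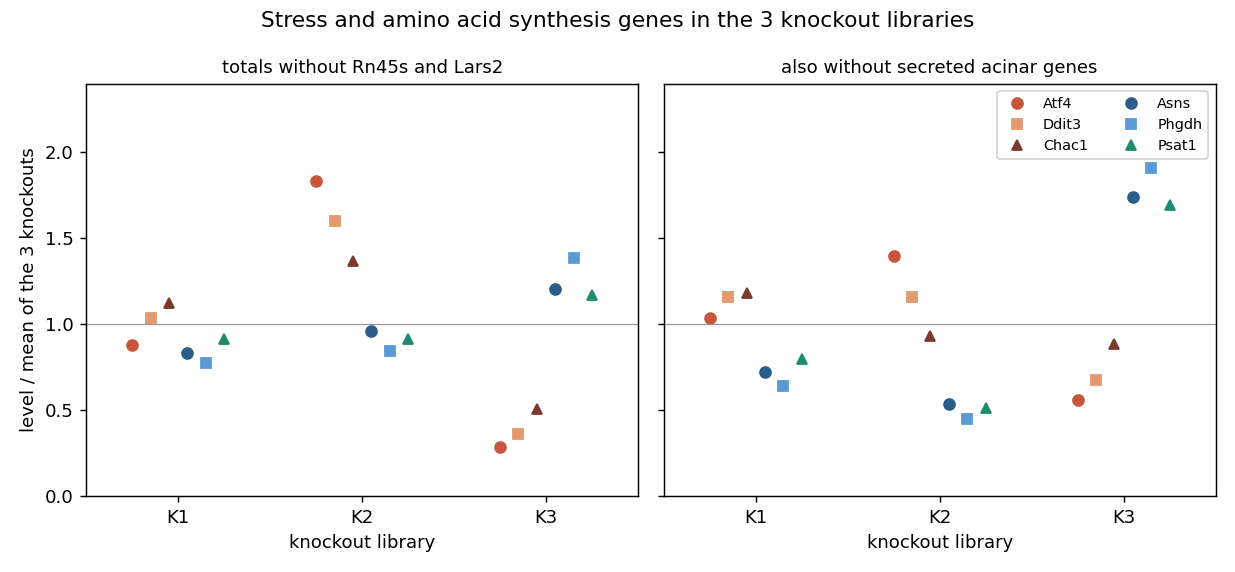
Level of 6 members in each knockout library (K1 to K3, x axis) divided by the gene's mean over the 3 knockouts (y axis, linear), on totals without Rn45s and Lars2 (left) and on totals that also leave out the secreted acinar genes (right). Each point is 1 library. Asns, Phgdh and Psat1 are highest in K3 in both panels, which the change of totals could not alter. Atf4 is highest in K2 and lowest in K3 in both.

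Other measures also differed between the knockouts. Immediate-early genes, which tissue dissociation induces, summed to 4290, 8892 and 566.5 CPM in knockouts 1, 2 and 3 and to 1703 and 958.3 CPM in the controls. In the fit all 16 tested ones had a log2 fold change above 0, beside 52.5% of all tested genes. Their median was 1.97, beside 0.224 over all tested genes. Only 1, Egr1, was called higher (adjusted p = 0.0173, edgeR quasi-likelihood test), with 0 and 1 control counts. Over all tested genes 0.193% were called higher. All 11 immediate-early genes with at least 30 counts in each knockout were highest in knockout 2 and lowest in knockout 3. This was the order of Atf4 and Ddit3, which 70.1% of the 1952 genes also had. With the secreted acinar genes out of the totals, 8 of the 11 kept this order, beside 23.8% of the 1952 genes, and all 11 were again lowest in knockout 3. Summed markers of other cell types were also highest in knockout 2, as were 82.2% of the 1952 genes on this scale. The 9 islet markers summed to 181.6, 1022 and 216.7 CPM and 7 duct markers to 372.7, 1164 and 271.1 CPM. For 9 macrophage and dendritic cell markers the sums were 142.6, 475.8 and 121.7 CPM. All 9 islet and all 7 duct markers were detected in every knockout, and Cd68, Emr1, Cdh5, Kdr, Ms4a1 and Lum had no count in knockout 3. Endothelial markers summed to 70.67, 95.83 and 22.72 CPM, fibroblast markers to 17.11, 84.9 and 9.267 CPM and lymphocyte markers to 9.825, 47.35 and 16.14 CPM in knockouts 1, 2 and 3, and red cell markers had no count. The islet and lymphocyte sums were lowest in knockout 1, and the duct, macrophage, endothelial and fibroblast sums in knockout 3. The sums were not repeated with the secreted acinar genes left out. In the controls the islet markers summed to 103.7 and 708.3 CPM, from 7 and 51 counts. Only 2 and 3 of the 9 islet markers were detected there, and Gcg, Sst and Ppy were among those at 0. The duct markers summed to 755.4 and 652.7 CPM and the macrophage and dendritic cell markers to 207.4 and 69.44 CPM. Endothelial markers summed to 0 and 83.33 CPM there, fibroblast markers to 14.81 and 222.2 CPM and lymphocyte markers to 207.4 and 27.78 CPM. Their part in the levels of Atf4 and Ddit3 was not tested. In bulk RNA, fewer cells of a type and less RNA per cell cannot be told apart.

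Among the other genes of the pathway, 7 lists were read from the same fit, and 0 of their 103 tested members were called in either direction with edgeR. At an unadjusted p under 0.05 the fit gave 4 of 17 sensors and eIF2 factors, 1 of 10 partner transcription factors, 6 of 19 other stress targets, 0 of 11 amino acid transporters, 2 of 20 tRNA synthetases, 1 of 8 serine and one-carbon enzymes and 2 of 18 other amino acid enzymes. Over all genes it was 1072 of 8291. The genes in these counts went both ways. Of the stress targets, Vldlr, Gdf15, Trib2 and Sesn1 were lower in the knockouts and Herpud1 and Map1lc3b higher. Of the sensors and eIF2 factors, Gcn1l1 and Impact were lower and Ppp1r15a and Eif2b2 higher. In the other lists Eprs, Farsa, Aldh1l2 and Oat were lower and Nupr1 and Ahcy higher. The lists' median log2 fold changes were 0.288, 1.13, -0.61, -0.128, -0.17, -0.784 and 0.454 in that order, beside 0.224 over all tested genes. As log2 ratios with genes lacking control counts at the floor, the medians were -0.17, 0.84, -0.85, -0.53, -0.24, -0.91 and -0.52, beside -1.14 over all tested genes. The limit given above for genes with few control counts holds here too.

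Ppp1r15a (GADD34), the phosphatase subunit that ends the response by dephosphorylating eIF2alpha, had 1 and 0 control counts and 409, 1137 and 68 knockout counts. It stood at 130, 319 and 20.3 CPM in the knockouts, highest in knockout 2 and lowest in knockout 3 like Atf4 and Ddit3. The pooled ratio was 22.4 (exact 95% interval 4.01 to 884) and the adjusted p 0.181 (edgeR quasi-likelihood test). Atf3, a factor of the ATF family that is also an immediate-early gene, had control levels of 74.1 and 153 CPM and knockout levels of 370, 927 and 23.6 CPM, with knockout 3 below both controls (adjusted p = 0.456, edgeR). Nupr1, a stress-induced chromatin protein of the exocrine pancreas, had 800 and 1903 CPM against 6001, 6974 and 2571 CPM (log2 fold change 1.94 ± 0.72 SE, adjusted p = 0.143, edgeR). Gcn1l1, an activator of the amino acid sensing kinase GCN2, lay the other way, with control levels of 74.1 and 194 CPM and knockout levels of 15.8, 31.1 and 5.08 CPM (adjusted p = 0.281, edgeR).

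Herpud1, of endoplasmic reticulum protein degradation, had 2 and 0 control counts and 101, 181 and 117 CPM in the knockouts, and the ratio of its pooled shares was 9.38 (exact 95% interval 2.59 to 77.5). Sqstm1, an autophagy receptor, had 26 and 1 control counts, or 385 and 13.9 CPM, and 227, 425 and 24.5 CPM in the knockouts. The controls thus disagreed with each other by more than the group means of 199 ± 262 and 226 ± 200 CPM (SD, n = 2 and 3) did. Slc3a2, the heavy chain shared by several amino acid transporters, gave 88.9 and 27.8 CPM in control libraries against 147, 224 and 72.3 CPM in knockout libraries. Slc38a5, a glutamine transporter, had 0 and 278 CPM against 18.7, 12.3 and 43.3 CPM, and was highest of the knockouts in knockout 3, like Asns. The adjusted p-values of these 4 genes ran from 0.361 for Herpud1 to 0.936 for Sqstm1 (edgeR quasi-likelihood test).

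The enzymes that charge tRNAs with amino acids were represented by Sars and Eprs, which had the highest average of the control and knockout means in their list, and whose control means were the higher on this scale without passing the test. That average favours genes that are high in the controls. TMM scaling without Rn45s and Lars2 moved the median of all genes by 1.7, more than the log2 fold change of -1.38 of Sars. Sars, for serine, had 42 and 0 control counts, 622 and 0 CPM, and 113, 136 and 109 CPM in the knockouts, so the knockout values lay between 2 discordant controls. Eprs, for glutamate and proline, gave 252 and 194 CPM in control libraries against 26.6, 56 and 10.2 CPM in knockout libraries (log2 fold change -2.85 ± 1.18 SE, adjusted p = 0.222, edgeR). Vars, for valine, named after its values were seen, had the higher mean in the knockouts, 131 against 42.1 CPM, with 1 and 5 control counts and a pooled ratio of 3.07 (exact 95% interval 1.41 to 8.38; adjusted p = 0.582, edgeR). Of 17 synthetases with at least 30 counts in each knockout, 15 were highest in knockout 2, a share of 88.2% beside 82.2% over all such genes. With secreted acinar genes out of the totals, 12 of the 17 were highest in knockout 3, 70.6% beside 46.9%.

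Of 4 glycine and serine enzymes outside the members with at least 30 counts in each knockout, 1 was highest in knockout 3 on these totals. Over all such genes the share was 10.2%. With the secreted acinar genes left out 3 of the 4 were highest there, beside 46.9% of all such genes. Gnmt, which methylates glycine, had control levels of 504 and 319 CPM and knockout levels of 352, 283 and 59.2 CPM, lowest in knockout 3. Gcat, which forms glycine from threonine, had 548 and 319 CPM against 192, 117 and 173 CPM (adjusted p = 0.558, edgeR). With the secreted acinar genes left out, Gcat in knockout 3 lay between the controls, at 1632 and 1072 against 915, 359 and 1369 CPM. Bcat2, of branched-chain amino acid breakdown, gave 385 and 55.6 CPM in control libraries against 125, 117 and 127 CPM in knockout libraries, and the knockout values spread to 593, 361 and 1004 CPM with the secreted acinar genes left out. Glul, glutamine synthetase, had control levels of 14.8 and 264 CPM and knockout levels of 157, 258 and 9.87 CPM, and its fitted change was 0.02 ± 1.14 (log2, SE; adjusted p = 0.997, edgeR).

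Among the genes whose profile over all 5 libraries was most like that of Atf4 were Ech1, Wbp5, Atp13a2 and Slc7a8, at Euclidean distances of 0.855 to 1.15 between centred log2(CPM + 10) values among the 881 other genes that averaged 50 CPM or more. Each had no count in control 1, like Atf4, and its highest knockout value in knockout 2 and lowest in knockout 3. They were picked by this distance, so the shared zero and order are no separate result. Of the 1952 genes with at least 30 counts in each knockout, 70.1% had the same order of knockouts. Slc7a8, an amino acid transporter, had 55.55 CPM in control 2, from 4 counts, and 98.88, 132 and 13.75 CPM in the knockouts. The likeness is a description over 5 libraries that share the difference in depth.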

How the data were processed

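For each of 5 libraries, 1 deposited file lists raw, whole-number counts by gene symbol. Tools listed in the submitters' processing notes are HTSeq 0.9.1, TopHat2 2.1.1, Cuffdiff 2.2.1.5 and Cuffnorm 2.2.1.2, with build mm9 and no roles. Annotation, strand setting and the handling of reads matching several genes are not given there. Libraries were made with a poly(A) kit that does not mark strand, per the labels' protocols, so reads of overlapping genes or pseudogene copies may be misassigned.

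CPM and tests used totals without Rn45s and Lars2. edgeR 4.0.16 (R 4.3.3) fitted group alone on all genes left by filterByExpr (minimum count 10), with no scaling factors, glmQLFit with robust estimation and glmQLFTest, two-sided. TMM was an alternative because it moved the median gene far from 0. DESeq2 1.42.0 and limma-voom (limma 3.58.1) were alternatives. The test was checked on simulated data at these depths. It called no unchanged gene, but in the first simulation it called no changed gene either. A second simulation, with more abundant genes than most members and larger changes, was then added; there it called most genes with the largest change and few with smaller ones. A member that was not called may therefore still differ. Poisson and ratio intervals are exact, 95%, and cover counting error only, as does the floor of 3 counts. Transcript lengths came from GENCODE M21, promoters from RefSeq GRCm38.p6. Members and gene lists were chosen with earlier results of these data known. From each pathway list the 2 genes with the highest average of the 2 group mean CPM were named, as none was called; this weighs the shallow controls as much as the knockouts. Vars, genes of the other cell types and the immediate-early list were named after their values were seen. So were the further pathway genes named for an unadjusted p under 0.05. Of the 5 genes most like Atf4 in profile, 1 is not reported here.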

Additional observations from a re-analysis of the deposited data

How the results depend on the processing

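No member was called in either direction under any of the 18 alternatives run; the lowest adjusted p was 0.0532, for Ddit3. Where the controls held no count of a gene, the edgeR fits could not turn its direction, so those values say nothing about stability; of the 63 others, from 4 members, 57 kept their direction. The turned values given here include those of genes without control counts. Asns turned to 1.22 with TMM on all counts, 1.26 with TMM without Rn45s and Lars2, 0.815 with RLE and 1.58 with totals that kept both genes. With limma-voom, Trib3 turned to -0.669, Cth to -0.135 and Psat1 to -0.201. Psat1 also turned to -0.463 without control 2. Without control 1 it was 7.77, but no Psat1 count was left in the control group there, so that value says nothing about stability. Sesn2 was not tested in the fit used here. The cause was not tested.

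Counts over all genes (16 higher, 133 lower) became 5 and 27 with TMM on all counts, 147 and 71 with TMM without both genes, 149 and 19 with totals that kept them, 81 lower with RLE, 354 lower with upper quartile factors, 898 lower without a filter, 388 lower at 1 CPM in 2 libraries, 49 higher at a mean of 50 CPM, 43 and 468 with DESeq2, 0 higher with limma-voom, and medians of 1 and 5.5 over 10 draws of thinned knockouts. With 1 library left out they ran from 0 to 19 higher and from 4 to 378 lower, lowest without knockout 1 and, for lower calls, highest without control 1. Replicate numbers 1 and 2 occur in both groups; nothing in the labels pairs them and 2 pairs allow no check. With the number as a replicate block the counts were 4 and 5, and no member was called.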
